A study of Mus musculus with 12 samples.

Results

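The interferon-stimulated antiviral genes described here are 51 mouse genes taken by symbol, namely effectors, RNA sensors and regulators of the interferon response without the antigen presentation genes. All 51 were in the deposited table of 54532 genes, and all 51 were among the 14424 genes that passed the low-count filter. They were measured by RNA sequencing in ATDC5, a wild-type mouse line labelled as cartilage progenitor cells and used as a culture model of chondrocyte formation. The cells were kept for 10 min at 37 °C, the culture temperature, at 40 °C or at 44 °C, and the design text states 4 biological replicates per temperature, each with its own library (12 in all). All 3 groups are 1 line of 1 genotype in the same serum-containing medium, no interferon or virus is named in the labels, and the time between heating and RNA extraction is not stated. The question of the series is how temperature acts on chondrocytes.

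Interferons are secreted proteins that cells release after sensing foreign nucleic acid. At their receptors they activate JAK kinases and transcription factors such as STAT2 and IRF9, which bind the interferon-stimulated response element in the promoters of a large group of antiviral genes. Their products sense viral RNA, degrade it, block virus entry or release, and tag proteins. Many cultured cells keep a low level of these mRNAs without infection.

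Library totals lay between 16269026 and 19506705 counts, so that 3 counts, the upper limit for a count of 0, corresponded to 0.154 to 0.184 CPM (the counts of a gene scaled to a common library size) and covered counting error only. The chondrocyte label was checked against its markers. Sox9, a transcription factor gene of cartilage, averaged 48.2 ± 14.9 CPM after 44 °C, against 54.2 ± 10.2 after 37 °C (SD, n = 4 each), while the cartilage matrix genes Col2a1 and Acan were near 1.21 and 2.13 CPM at 37 °C, and 1 of 10 chondrogenic markers was at 0 in every library. Heating was visible in the inducible chaperone gene Hspb1, which averaged 221 ± 22.8 CPM after 44 °C, against 71.2 ± 7.76 after 37 °C (log2FC 1.63 ± 0.092, adjusted p = 2.94e-07, by edgeR's quasi-likelihood test, where log2FC is the log2 fold change with its SE). Within groups, libraries differed along 1 axis, the first component of the deviations from group means over genes outside the list, with 29.6% of that variance. On this axis 44 °C replicates 2 and 4 lay at 1.49 and 1.37 and 44 °C replicate 1 at −1.07, while 40 °C replicate 2 lay at 1.48 and 37 °C replicate 1 at −1.47.

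The promoters show a sequence that many of the genes share. RefSeq (GRCm38.p6) gave promoters, from 250 bases before to 50 bases after the start site, for 39 of the 51 genes, the other 12 being Dhx58, Rtp4, Zbp1, Parp14, Ifi27, Parp9, Oas2, Iigp1, Oas1b, Usp18, Mx2 and Mx1. The response element was searched on both strands as GAAA, any 2 bases, then GAAA, and overlapping matches were counted. It occurred in 21 of the 39 genes (53.8%), against 3.69% of the 10112 tested genes with a searched promoter. The stretches below are upstream bases of the 4 genes lower at 44 °C with the smallest p whose matches lay before the start site and outside the deposited gene span, and of Ifit1 and Rsad2, chosen after their values were seen as genes that were not called. Capitals mark the response element on either strand, except the first capital run of Bst2, which marks a heat shock element.
Bst2, chr8:71537557-71537658, minus strand: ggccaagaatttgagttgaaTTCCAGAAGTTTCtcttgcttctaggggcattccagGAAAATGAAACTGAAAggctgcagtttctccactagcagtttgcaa
Gbp3, chr3:142559979-142560025, plus strand: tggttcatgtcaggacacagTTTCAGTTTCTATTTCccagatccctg
Isg15, chr4:156200845-156200916, minus strand: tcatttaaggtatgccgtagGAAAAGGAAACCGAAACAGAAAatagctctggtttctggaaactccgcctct
Oas1a, chr5:120907526-120907565, minus strand: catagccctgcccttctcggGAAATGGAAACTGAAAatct
Ifit1, chr19:34640765-34640843, plus strand: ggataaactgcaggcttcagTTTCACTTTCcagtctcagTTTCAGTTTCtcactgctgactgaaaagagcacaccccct
Rsad2, chr12:26456533-26456592, minus strand: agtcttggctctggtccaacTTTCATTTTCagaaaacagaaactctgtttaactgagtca
In Gbp3, Isg15, Oas1a and Bst2 neighbouring matches shared bases, whereas the 2 matches of Ifit1 stood apart and Rsad2 held 1. The response element was in 12 of 22 promoters of genes called lower at 44 °C (54.5%) and in 9 of 17 promoters of genes not called (52.9%). The gamma-activated site, searched as TTC, any 3 bases, then GAA, was in 11 of the 39 genes (28.2%), against 8.13% of the tested genes. In Bst2 a gamma-activated site overlapped the response element. The heat shock element, searched as GAA, any 2 bases, TTC, any 2 bases and GAA, was in 1 of the 39 genes, Bst2, between bases −166 and −154 from the start site, against 0.554% of the tested genes. These matches are descriptions of letters, not of bound sites.

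After 10 min at 44 °C, 30 of the 51 genes were lower than at 37 °C, none was called higher, and 21 were not called by edgeR's quasi-likelihood test (Benjamini-Hochberg adjusted p under 0.05). Among all genes tested, 7.11% were called lower and 6.58% higher. The median log2 fold change of the 51 genes was −0.54, beside −0.00034 over all genes tested, and single genes lay between −1.79 and 0.25. At an unadjusted p under 0.05, 35 were lower and 0 higher, where 4455 of all 14424 genes passed in either direction. DESeq2 called 33 lower and 0 higher, and 2648 of all genes in either direction. In 29 genes every library at 44 °C lay below every library at 37 °C, a pattern seen in 9.13% of all genes tested. Among the called genes Zbp1 and Oas3 had overlapping groups, and Iigp1 had separate groups but was not called. A call together with an at least 2-fold lower level was reached by 4 genes, Oas2, Lgals3bp, Irf7 and Bst2, and by 0.603% of all genes. In bulk RNA, fewer cells that make an mRNA and less of it per cell cannot be told apart.

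**Figure D1:**
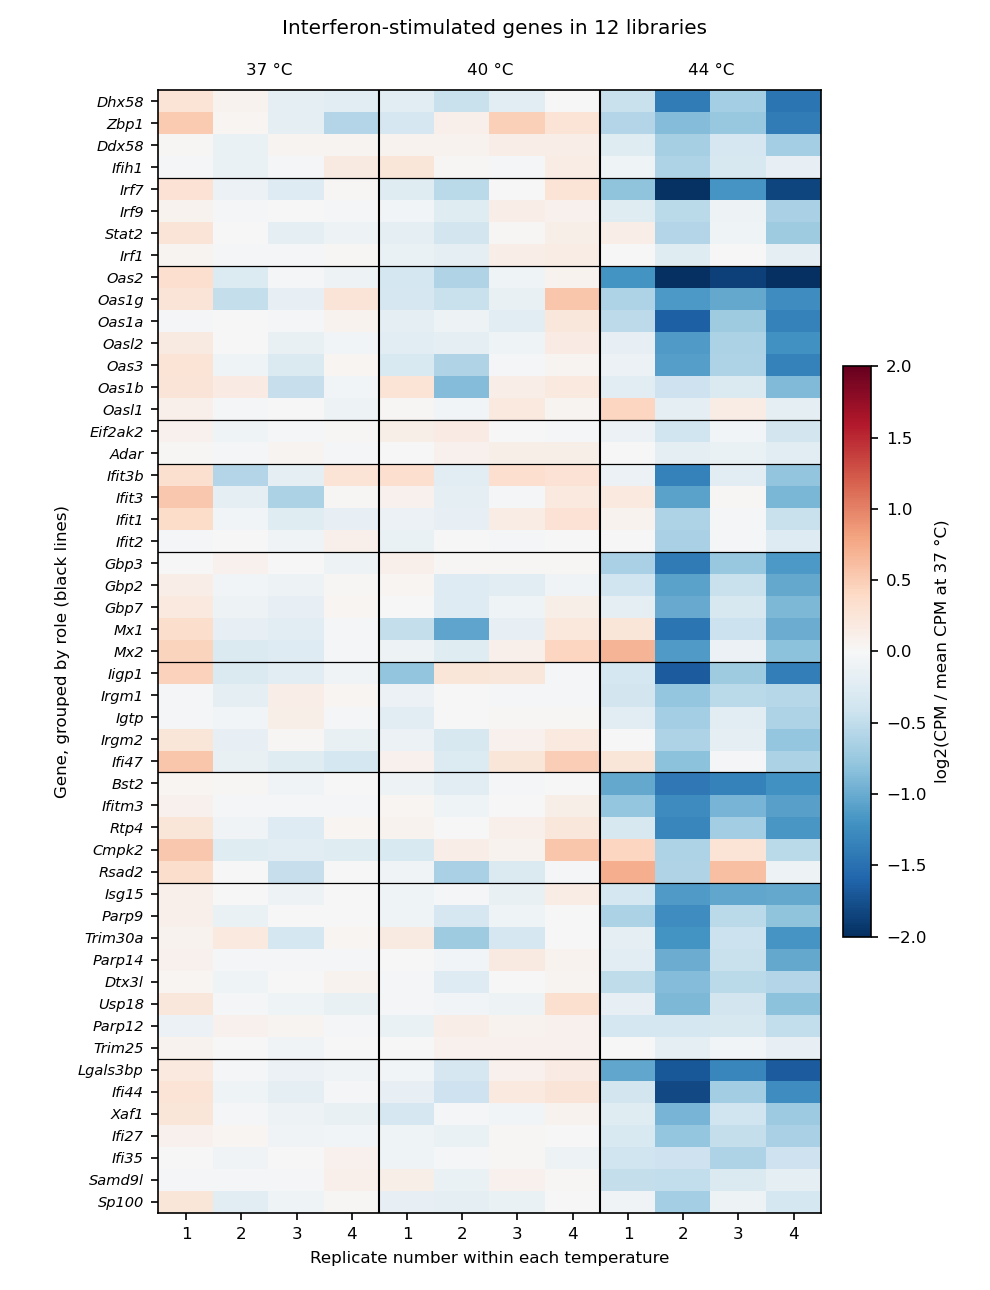
Difference of each of the 51 genes (rows, by role) from its mean at 37 °C, in log2 CPM, in the 12 libraries (columns, 37, 40 and 44 °C from left to right). The 44 °C columns are lower in most rows, more so in replicates 2 and 4 than in replicate 1, and 49 of 51 genes had their lowest group mean at 44 °C.

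The change had the same sign in nearly all genes but was uneven between libraries. The median difference of the 51 genes from their 37 °C means was −0.22, −0.88, −0.39 and −0.76 (log2) in 44 °C replicates 1 to 4. The same measure gave −0.08, −0.15, 0.026 and 0.12 in the 40 °C libraries, and 0.18, −0.045, −0.08 and −0.0096 in those of 37 °C. All 4 libraries at 44 °C were below all others by this measure. In 46 of the 51 genes 44 °C replicates 2 and 4 were the 2 lowest of their group, and in 45 genes replicate 1 was the highest. Replicates spread more after 44 °C: the median coefficient of variation of the genes was 9.63%, 11.6% and 22.2% from 37 to 44 °C. When the axis was entered as a covariate, 32 genes were called lower and 1 higher, with a median of −0.40, and 3178 of all genes were called. The axis was built within groups, but library scores on it kept differences between temperatures. Their means were −0.42, 0.018 and 0.40 at 37, 40 and 44 °C, so this fit does not fully separate the axis from temperature. Without 37 °C replicate 1, 19 genes were called lower, without 44 °C replicate 2 or 4, 20 each, and without 44 °C replicate 1, 36. Calls over all genes in either direction moved along: they numbered 979, 980, 1064 and 3322 in those 4 fits, against 1975 with all libraries.

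**Figure D2:**
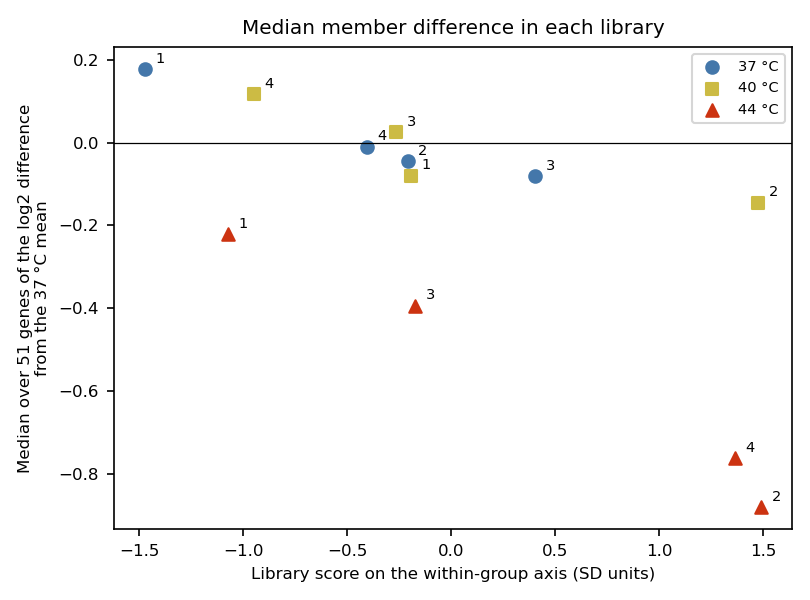
Median log2 difference of the 51 genes from their 37 °C means against the position of each library on the within-group axis (SD units), with the replicate number beside each point. The 4 libraries at 44 °C lie lowest, between −0.22 and −0.88, and 44 °C replicates 2 and 4, at 1.37 and above on the axis, are the lowest of all.

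**Figure D3:**
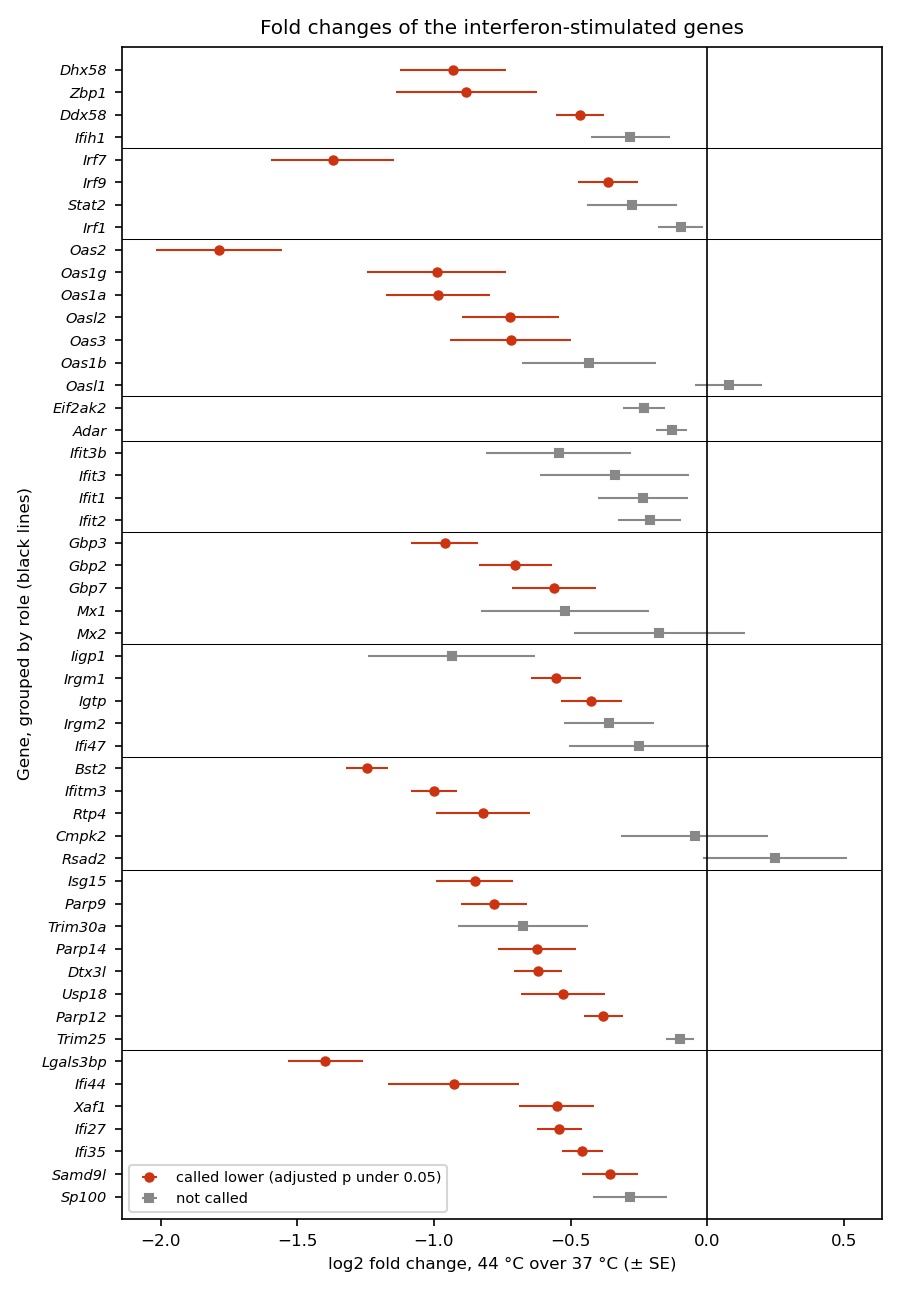
Log2 fold change of each of the 51 genes at 44 °C over 37 °C (points) ± SE (bars) from the edgeR fit, with genes grouped by role between black lines, called genes as red circles and others as grey squares. The values run from −1.79 (Oas2) to 0.25 (Rsad2), and 49 of 51 lie below 0.

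Measured per deposited gene length, the levels spanned a wide range. At 37 °C Ifitm3 had 671 ± 28.2 RPKM (CPM per kilobase of deposited gene length) and Bst2 379 ± 12.4 RPKM, followed by Ifi27 at 86.4 ± 4.37, Lgals3bp at 45.2 ± 4.33 and Isg15 at 33.2 ± 1.87 RPKM (SD, n = 4). The lowest levels were those of Iigp1 (0.859 ± 0.219), Rsad2 (0.804 ± 0.179) and Ifih1 (0.673 ± 0.0649 RPKM). Neighbours in this order often overlapped: Gbp2, Trim25 and Eif2ak2 had 27.3 ± 2.01, 24.5 ± 0.980 and 24.0 ± 1.21 RPKM. The summed level of the list was 1657 ± 260 CPM at 44 °C and 2614 ± 137 CPM at 37 °C. Ifitm3 and Bst2 made up 30.5% of that sum at 37 °C and 44.4% of its net loss at 44 °C.

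Among the sensors, Ddx58, Dhx58 and Zbp1 fell at 44 °C and Ifih1 was not called. Ddx58 encodes RIG-I, which detects viral RNA ends, and lies on chromosome 4, 40203773 to 40239828 (mm10, as are all gene coordinates here). Ddx58 had 97.2, 87.1, 99.8 and 99.6 CPM at 37 °C, 101, 100.4, 105 and 105 CPM at 40 °C and 81.2, 60.8, 75.7 and 60.0 CPM at 44 °C. The 44 °C libraries lay below all others, and those at 40 °C above those at 37 °C (log2FC −0.47 ± 0.087, adjusted p = 0.00375 for 44 °C over 37 °C). The difference between 40 °C and 37 °C was not called by the same test (log2FC 0.10, adjusted p = 0.823). Dhx58 encodes LGP2, a RIG-I-like regulator without a signalling domain. Dhx58 had 22.9, 11.9, 19.5 and 11.3 CPM at 44 °C, against 37.6, 33.0, 27.6 and 26.8 CPM at 37 °C. Every 44 °C library was below every 37 °C one, with replicates 2 and 4 lower than replicates 1 and 3 (log2FC −0.93 ± 0.19, adjusted p = 0.00679). Zbp1, which recognises nucleic acid in the Z form and triggers cell death, averaged 2.05 ± 0.457 CPM after 44 °C, against 3.77 ± 1.22 after 37 °C (log2FC −0.88 ± 0.26, adjusted p = 0.0364), with 1 library at 37 °C inside the 44 °C range. The call did not hold without 37 °C replicates 1 or 2 or 44 °C replicates 2, 3 or 4 (adjusted p between 0.0584 and 0.136, 0.00989 to 0.136 over all alternatives). Ifih1, which encodes the long-RNA sensor MDA5, averaged 4.52 ± 0.709 CPM after 44 °C, against 5.50 ± 0.530 after 37 °C (log2FC −0.28, adjusted p = 0.199).

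Of the transcription regulators, Irf7 and Irf9 fell, whereas Irf1 and Stat2 were not called. IRF7 amplifies interferon production once it is induced. Irf7 had 89.5, 67.3, 61.5 and 74.8 CPM at 37 °C, 62.3, 50.4, 74.0 and 88.3 CPM at 40 °C and 41.9, 18.7, 32.3 and 20.4 CPM at 44 °C. Irf7 was 2.59-fold lower at 44 °C than at 37 °C with no overlap (log2FC −1.37 ± 0.23, adjusted p = 0.00174), and its 4 libraries at 44 °C differed by more than 2-fold among themselves. Its span on chromosome 7, 141262706 to 141266481, overlaps Phrf1 on the opposite strand, which had a log2 fold change of 0.13 (adjusted p = 0.241). Irf9, the DNA-binding part of its complex with STAT2, averaged 31.3 ± 5.38 CPM after 44 °C, against 40.3 ± 1.45 after 37 °C (log2FC −0.36 ± 0.11, adjusted p = 0.0412). The call did not hold without 37 °C replicates 1, 2, 3 or 4, 40 °C replicate 1, or 44 °C replicates 2 or 4 (adjusted p between 0.0538 and 0.124, 0.00905 to 0.124 over all alternatives), nor with library totals in place of TMM. Irf9 overlaps Rnf31 on the same strand, which had a log2 fold change of −0.03 (adjusted p = 0.865). Stat2, its partner, had 68.0, 41.4, 58.5 and 37.9 CPM at 44 °C and 74.6, 61.9, 54.6 and 57.7 CPM at 37 °C (log2FC −0.28, adjusted p = 0.272). Replicate 1 at 44 °C lay within the 37 °C range and replicates 2 and 4 below it, and Stat2 passed the test without 44 °C replicate 1 (adjusted p = 0.0463, 0.0463 to 0.579 over all alternatives). Irf1, an activator that responds to interferon gamma, averaged 64.8 ± 5.85 CPM after 44 °C, against 69.3 ± 2.07 after 37 °C (log2FC −0.10, adjusted p = 0.452).

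The OAS enzymes make short oligoadenylates that switch on the nuclease RNase L. Of 7 family members, 5 fell at 44 °C. Oas2, read with 22 to 155 counts per library, had the lowest fold change of the 51 genes. Oas2 had 7.81, 5.09, 6.01 and 5.72 CPM at 37 °C, 4.82, 4.05, 5.77 and 6.44 CPM at 40 °C and 2.68, 1.33, 1.70 and 1.43 CPM at 44 °C. No library at 44 °C reached the level of any other, and Oas2 was 3.45-fold lower at 44 °C than at 37 °C (log2FC −1.79 ± 0.23, adjusted p = 0.000366). Oas1a had 9.86, 4.55, 8.596 and 5.54 CPM at 44 °C, against 13.9, 14.1, 13.7 and 14.9 CPM at 37 °C. Its groups did not overlap (log2FC −0.98 ± 0.19, adjusted p = 0.00434). Oas1g, a close copy, averaged 2.04 ± 0.408 CPM after 44 °C, against 4.04 ± 0.954 after 37 °C (log2FC −0.99 ± 0.25, adjusted p = 0.0202), and how reads were divided between the copies is not stated. The Oas1g call was lost without 37 °C replicates 1 or 4 or 44 °C replicates 2 or 4 (adjusted p between 0.0604 and 0.0675, 0.00279 to 0.0675 over all alternatives). With the counts of Oas1a and Oas1g summed, the log2 fold change was −0.99 (adjusted p = 0.00313).

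Oas3 averaged 14.8 ± 5.76 CPM after 44 °C, against 24.3 ± 3.99 after 37 °C (log2FC −0.72 ± 0.22, adjusted p = 0.0436), and 44 °C replicate 1 lay within the 37 °C range. This call was lost without 37 °C replicates 1, 2 or 4, 40 °C replicates 1 or 3, or 44 °C replicates 2, 3 or 4 (adjusted p between 0.0556 and 0.132, 0.000506 to 0.132 over all alternatives), with library totals in place of TMM, and with only the 2 groups in the fit. Oasl2, an OAS-like gene, averaged 26.4 ± 9.22 CPM after 44 °C, against 43.4 ± 4.06 after 37 °C (log2FC −0.72 ± 0.18, adjusted p = 0.0170). The call did not hold without 37 °C replicate 1 or 44 °C replicates 2 or 4 (adjusted p between 0.0505 and 0.0554, 1.85e-05 to 0.0554 over all alternatives). Its neighbour Oasl1, whose product limits Irf7 translation in mice, averaged 20.1 ± 4.28 CPM after 44 °C, against 19.0 ± 1.16 after 37 °C (log2FC 0.078, adjusted p = 0.708), and Oas1b, a flavivirus resistance gene of mice, averaged 2.82 ± 0.536 CPM after 44 °C, against 3.80 ± 0.780 after 37 °C (log2FC −0.43, adjusted p = 0.245). Neither passed the test.

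**Figure D4:**
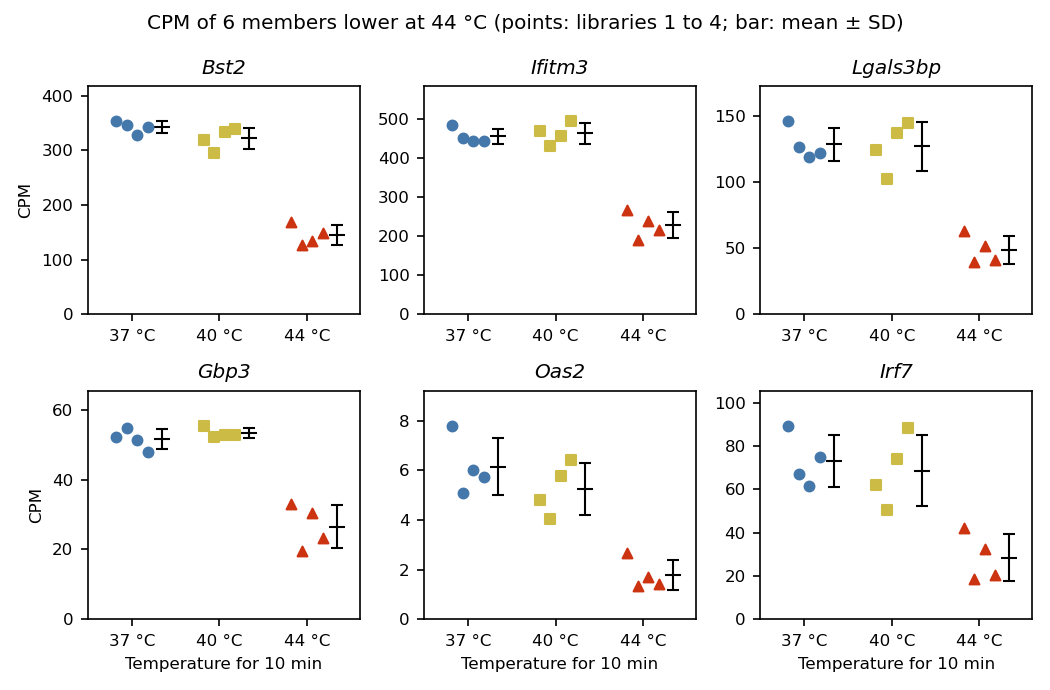
CPM of 6 genes lower at 44 °C in each library (points, replicates 1 to 4 from left to right) with the mean ± SD (bars), at 37, 40 and 44 °C. In all 6 panels the 4 libraries at 44 °C lie below the 8 others, and the 40 °C libraries lie among or near those at 37 °C.

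The membrane effectors Bst2 and Ifitm3 had the smallest p-values of the list. BST2, or tetherin, holds budding virus particles on the cell surface. Bst2 had 354, 346, 327 and 343 CPM at 37 °C, 319, 296, 333 and 339.7 CPM at 40 °C and 169, 127, 134 and 148 CPM at 44 °C. The 44 °C libraries stood far below all 8 others, and Bst2 was 2.37-fold lower at 44 °C than at 37 °C (log2FC −1.25 ± 0.077, adjusted p = 5.9e-07). IFITM3 blocks fusion of viruses with endosomal membranes. Ifitm3 had 483, 449.7, 443 and 443 CPM at 37 °C, 469.5, 429, 455 and 494 CPM at 40 °C and 267, 190.0, 239 and 214 CPM at 44 °C. All 44 °C libraries lay well below the rest, with replicate 2 the lowest, and Ifitm3 was 1.999-fold lower than at 37 °C (log2FC −0.999 ± 0.084, adjusted p = 8.66e-06). Bst2 lies on chromosome 8, 71534255 to 71537456, and Ifitm3 on chromosome 7, 141009586 to 141010770. Rtp4, a receptor-transporting protein gene that is induced by interferon, averaged 15.2 ± 4.85 CPM after 44 °C, against 26.9 ± 3.97 after 37 °C (log2FC −0.82 ± 0.17, adjusted p = 0.00691). It overlaps Masp1 on the opposite strand, which had a log2 fold change of −0.31 (adjusted p = 0.0872).

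The nucleotide effectors Rsad2 and Cmpk2, neighbours on chromosome 12, were not called. RSAD2, or viperin, makes a chain-terminating nucleotide that stops viral polymerases. Rsad2 had 5.77, 2.30, 5.26 and 3.25 CPM at 44 °C, against 4.43, 3.46, 2.53 and 3.52 CPM at 37 °C. Replicates 1 and 3 at 44 °C were above every 37 °C library and replicates 2 and 4 were below most of them (log2FC 0.25, adjusted p = 0.560). When the axis was entered as a covariate, Rsad2 was called higher (log2FC 0.53, adjusted p = 0.0335, 0.0335 to 0.920 over all alternatives). Mean scores on that axis differed between temperatures, so that fit does not fully separate the axis from temperature. Cmpk2, a mitochondrial nucleotide kinase gene, averaged 4.27 ± 1.56 CPM after 44 °C, against 4.39 ± 1.34 after 37 °C (log2FC −0.047, adjusted p = 0.927).

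Of 8 genes of the ISG15, ubiquitin and ADP-ribose enzymes, 6 fell. ISG15 is a ubiquitin-like protein that is joined to other proteins. Isg15 had 26.9, 25.1, 23.4 and 25.0 CPM at 37 °C, 23.5, 24.6, 22.6 and 27.7 CPM at 40 °C and 19.7, 11.5, 12.2 and 12.3 CPM at 44 °C. Replicate 1 was the highest at 44 °C and the other 3 were close together, all below the 37 °C libraries (log2FC −0.85 ± 0.14, adjusted p = 0.00181). USP18 removes ISG15 and dampens the interferon receptor, and Usp18 averaged 13.4 ± 3.28 CPM after 44 °C, against 19.3 ± 2.24 after 37 °C (log2FC −0.53 ± 0.15, adjusted p = 0.0353). The Usp18 call was lost without 37 °C replicates 1, 2 or 4 or 44 °C replicates 2 or 4 (adjusted p between 0.0544 and 0.114, 0.00339 to 0.114 over all alternatives). Parp9 and Dtx3l, whose products form a complex, share part of their spans on opposite strands of chromosome 16, so that reads in the shared part cannot be told apart if strand was not used. Parp9 had 33.5, 21.96, 35.7 and 29.8 CPM at 44 °C, against 55.9, 47.6, 52.1 and 52.1 CPM at 37 °C. Dtx3l had 31.8, 24.6, 30.9 and 29.9 CPM at 44 °C, against 46.1, 42.3, 44.8 and 47.1 CPM at 37 °C. Neither gene had overlapping groups, with log2FC −0.78, adjusted p = 0.00118 for Parp9 and log2FC −0.62, adjusted p = 0.000660 for Dtx3l. The ADP-ribosyltransferase genes Parp12 (log2FC −0.38, adjusted p = 0.00331) and Parp14 (log2FC −0.62, adjusted p = 0.0116) also fell. Trim25, a ubiquitin ligase gene of the RIG-I pathway, had 140.5, 123, 136 and 127 CPM at 44 °C, against 148, 142, 134 and 140.3 CPM at 37 °C (log2FC −0.10, adjusted p = 0.210). Trim30a, a ligase gene linked to restraint of innate signalling, averaged 4.52 ± 1.61 CPM after 44 °C, against 7.23 ± 1.12 after 37 °C (log2FC −0.68, adjusted p = 0.0718). It passed the test with DESeq2, with no filter on low counts and with the within-group axis. Trim30a also passed without 40 °C replicate 2 or 44 °C replicate 1 (adjusted p between 0.0163 and 0.0481 in these left-out fits, 0.0163 to 0.194 over all alternatives).

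Among the guanylate-binding and dynamin-like GTPases, Gbp2, Gbp3 and Gbp7 fell and the Mx genes were not called. Guanylate-binding proteins coat and break the compartments of intracellular pathogens, and the 3 genes are neighbours on chromosome 3. Gbp3 had 52.2, 55.0, 51.6 and 48.1 CPM at 37 °C, 55.5, 52.3, 52.7 and 52.8 CPM at 40 °C and 33.0, 19.4, 30.5 and 23.4 CPM at 44 °C. Gbp3 at 44 °C was below every other library and 1.95-fold lower than at 37 °C (log2FC −0.96 ± 0.12, adjusted p = 0.000314). Gbp2 averaged 42.2 ± 10.3 CPM after 44 °C, against 68.6 ± 5.05 after 37 °C (log2FC −0.70 ± 0.13, adjusted p = 0.00404). Gbp7 averaged 33.9 ± 9.39 CPM after 44 °C, against 50.1 ± 5.72 after 37 °C (log2FC −0.56 ± 0.15, adjusted p = 0.0274), and its call was lost without 37 °C replicates 1 or 4 or 44 °C replicates 2 or 4 (adjusted p between 0.0696 and 0.0881, 0.000217 to 0.0881 over all alternatives). Mx proteins trap viral nucleocapsids, in the nucleus for mouse MX1 and in the cytoplasm for mouse MX2. Mx1 had 9.27, 2.85, 5.85 and 3.94 CPM at 44 °C, against 9.97, 7.03, 6.72 and 7.69 CPM at 37 °C. Replicate 1 at 44 °C lay in the upper 37 °C range and replicates 2 to 4 below all 37 °C libraries (log2FC −0.52, adjusted p = 0.266). Mx1 passed the test without 44 °C replicate 1 (adjusted p = 0.0308, 0.0308 to 0.550 over all alternatives). Mx2 averaged 5.17 ± 3.004 CPM after 44 °C, against 5.83 ± 1.48 after 37 °C (log2FC −0.18, adjusted p = 0.742).

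The immunity-related GTPases act on the vacuoles of intracellular pathogens in mice. Irgm1, a regulator of the family, had 18.9, 14.3, 16.8 and 16.5 CPM at 44 °C, against 24.1, 21.6, 26.8 and 25.0 CPM at 37 °C, with no overlap (log2FC −0.55 ± 0.092, adjusted p = 0.00186). Igtp, another regulator, averaged 14.5 ± 2.46 CPM after 44 °C, against 19.5 ± 1.05 after 37 °C (log2FC −0.42 ± 0.11, adjusted p = 0.0228), and its call was lost without 37 °C replicates 1 or 3 or 44 °C replicates 2 or 4 (adjusted p between 0.0503 and 0.0747, 0.00421 to 0.0747 over all alternatives). Igtp overlaps Irgm2 on the same strand of chromosome 11, and Irgm2 averaged 10.6 ± 2.63 CPM after 44 °C, against 13.6 ± 1.83 after 37 °C (log2FC −0.36, adjusted p = 0.152). Irgm2 passed the test without 44 °C replicate 1 (adjusted p = 0.0348, 0.0348 to 0.368 over all alternatives). Iigp1, an effector GTPase gene with 14 to 73 counts per library, averaged 1.40 ± 0.574 CPM after 44 °C, against 2.68 ± 0.684 after 37 °C (log2FC −0.94, adjusted p = 0.0553). Although its groups did not overlap, Iigp1 passed the test only in some alternatives, DESeq2 and the fit with no filter on low counts among them. It also passed without 40 °C replicate 1 or 44 °C replicate 1 (adjusted p between 0.0165 and 0.0457 in these left-out fits, 0.0165 to 0.179 over all alternatives). Ifi47 averaged 4.77 ± 1.61 CPM after 44 °C, against 5.65 ± 1.80 after 37 °C (log2FC −0.25, adjusted p = 0.540).

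Neither the double-stranded RNA enzymes nor the IFIT genes were called at 44 °C against 37 °C. Eif2ak2 encodes PKR, the kinase that halts translation on viral RNA. Eif2ak2 had 113, 92.9, 118 and 95.0 CPM at 44 °C, against 130.1, 116, 119.8 and 125 CPM at 37 °C. Replicates 2 and 4 at 44 °C were the lowest and replicate 3 overlapped the 37 °C range (log2FC −0.23, adjusted p = 0.0613). Eif2ak2 passed the test with DESeq2, with no filter on low counts and with the within-group axis. It also passed without 44 °C replicates 1 or 3 (adjusted p between 0.0286 and 0.0292 in these left-out fits, 0.0286 to 0.180 over all alternatives). Adar, which encodes the enzyme that edits adenosine to inosine in RNA, averaged 113 ± 7.88 CPM after 44 °C, against 124 ± 4.01 after 37 °C (log2FC −0.13, adjusted p = 0.130), and passed the test without 44 °C replicate 1 (adjusted p = 0.0261, 0.0261 to 0.308 over all alternatives). IFIT proteins bind viral RNA that lacks the marks of the cell's own caps. Ifit1 had 23.0, 17.1, 15.0 and 15.9 CPM at 37 °C, 16.4, 15.8, 19.7 and 21.6 CPM at 40 °C and 18.5, 11.6, 17.2 and 13.1 CPM at 44 °C. The groups overlapped, with 44 °C replicates 1 and 3 inside the 37 °C range (log2FC −0.24, adjusted p = 0.356). Ifit2 gave log2FC −0.21, adjusted p = 0.222, Ifit3 log2FC −0.34, adjusted p = 0.425 and Ifit3b log2FC −0.54, adjusted p = 0.179. With the counts of the near-identical Ifit3 and Ifit3b summed, the log2 fold change was −0.40 (adjusted p = 0.307). The 4 Ifit genes are neighbours on chromosome 19.

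**Figure D5:**
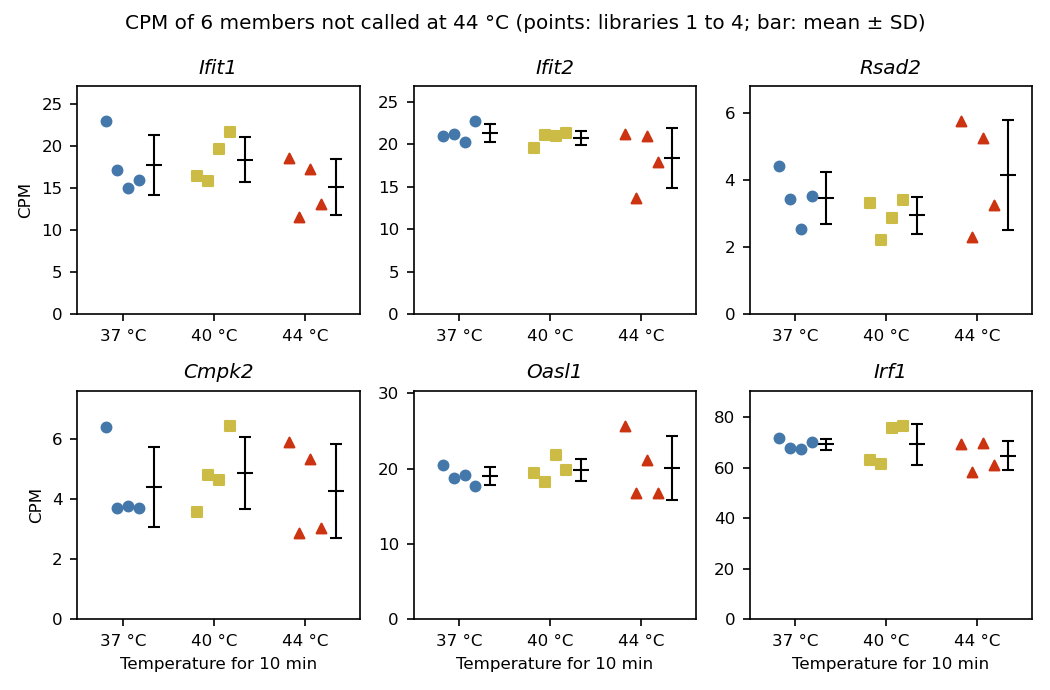
CPM of 6 genes not called at 44 °C against 37 °C, in each library (points, replicates 1 to 4 from left to right) with the mean ± SD (bars), at 37, 40 and 44 °C. In each panel the ranges at 44 °C and 37 °C overlap, and replicates 1 and 3 at 44 °C lie above replicates 2 and 4.

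Of 7 other interferon-induced genes, 6 fell. Lgals3bp encodes a secreted glycoprotein that binds galectins and lies on chromosome 11, 118392751 to 118402092. Lgals3bp had 146, 127, 119 and 122 CPM at 37 °C, 124, 102, 137 and 145 CPM at 40 °C and 62.8, 39.8, 51.8 and 40.7 CPM at 44 °C. The 44 °C libraries stood below all 8 others, replicates 2 and 4 the lowest, and Lgals3bp was 2.63-fold lower than at 37 °C (log2FC −1.40 ± 0.14, adjusted p = 3.84e-05). Ifi27, which encodes a small membrane protein, averaged 87.1 ± 12.5 CPM after 44 °C, against 127 ± 6.42 after 37 °C (log2FC −0.54 ± 0.083, adjusted p = 0.00118). Ifi35, whose product pairs with NMI, averaged 17.6 ± 1.23 CPM after 44 °C, against 24.2 ± 1.08 after 37 °C (log2FC −0.46 ± 0.075, adjusted p = 0.00174). Ifi44 averaged 5.65 ± 2.30 CPM after 44 °C, against 10.8 ± 1.59 after 37 °C (log2FC −0.93 ± 0.24, adjusted p = 0.0204), and its call was lost without 37 °C replicate 1 or 44 °C replicate 4 (adjusted p between 0.0643 and 0.0691, 0.000192 to 0.0691 over all alternatives). Xaf1, which encodes a partner of the apoptosis inhibitor XIAP, averaged 23.8 ± 5.09 CPM after 44 °C, against 34.8 ± 4.52 after 37 °C (log2FC −0.55 ± 0.14, adjusted p = 0.0184), and its call was lost without 37 °C replicate 1 or 44 °C replicates 2 or 4 (adjusted p between 0.0560 and 0.0675, 0.000322 to 0.0675 over all alternatives). Samd9l, an antiviral and growth-restraining gene, averaged 8.38 ± 0.827 CPM after 44 °C, against 10.7 ± 0.514 after 37 °C (log2FC −0.36 ± 0.10, adjusted p = 0.0353), and its call was lost without 37 °C replicates 1, 2, 3 or 4 or 44 °C replicates 1, 2 or 3 (adjusted p between 0.05002 and 0.109, 0.0174 to 0.109 over all alternatives), with no filter on low counts, and with only the 2 groups in the fit. Sp100, a nuclear body gene, averaged 10.4 ± 1.89 CPM after 44 °C, against 12.6 ± 1.78 after 37 °C (log2FC −0.28, adjusted p = 0.171).

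At 40 °C none of the 51 genes was called against 37 °C by edgeR, as was the case for all genes tested (0% called), and DESeq2 called 0 of the 51. None of the 51 had an unadjusted p under 0.05, against 752 of the 14424 genes. The median log2 fold change was −0.03, with single genes between −0.30 (Mx1) and 0.20 (Ifit3b), 30 below and 21 above 0. Every adjusted p was 0.823 or higher. In 50 of the 51 genes the 40 °C and 37 °C libraries overlapped, and in Ddx58 the 4 libraries at 40 °C, between 100.4 and 105 CPM, lay above the 4 at 37 °C. For this comparison the share of all genes with separate groups is not given here, so neither the overlap count nor the separation in Ddx58 is read as a result. The summed level was 2591 ± 158 CPM at 40 °C and 2614 ± 137 CPM at 37 °C.

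Against 40 °C, 26 of the 51 genes were lower at 44 °C and none was called higher, beside 3.15% lower and 1.88% higher among all genes tested. This comparison shares its 44 °C libraries with the one against 37 °C. At an unadjusted p under 0.05, 36 genes were lower and 0 higher, where 2906 of all 14424 genes passed in either direction. DESeq2 called 33 lower and 0 higher, and 1211 of all genes in either direction. The median log2 fold change was −0.49, with 0.01 over all genes tested. Bst2 (log2FC −1.16, adjusted p = 8.31e-07), Ifitm3 (log2FC −1.02, adjusted p = 9.6e-06) and Lgals3bp (log2FC −1.38, adjusted p = 5.94e-05) again had the smallest p-values. Both comparisons called 24 genes of the list, and the share of all genes tested that both called is not given here. The 6 genes called only against 37 °C were Irf9, Oas3, Oasl2, Gbp7, Igtp and Xaf1, and the 2 called only against 40 °C were Eif2ak2 (log2FC −0.30, adjusted p = 0.0394) and Adar (log2FC −0.21, adjusted p = 0.0426). Their call was lost without 37 °C replicates 2, 3 or 4, 40 °C replicates 1, 2 or 3, or 44 °C replicates 2 or 4 (adjusted p between 0.0519 and 0.119, 0.00192 to 0.119 over all alternatives) for Eif2ak2 and without 37 °C replicates 2, 3 or 4, 40 °C replicates 2, 3 or 4, or 44 °C replicates 2, 3 or 4 (adjusted p between 0.0533 and 0.123, 0.00272 to 0.123 over all alternatives) for Adar. Library totals in place of TMM and a fit of only the 2 groups also ended both calls, and no filter on low counts ended that of Adar. Without 44 °C replicate 2, 17 genes were called lower, and with only the 40 °C and 44 °C libraries in the fit, 16, while all genes called in either direction numbered 426 and 334, against 725. The joint test over the 3 temperatures called 27 of the 51 genes, all among the 30, and 8.21% of all genes tested.

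Genes that lie side by side had like calls in some places and unlike calls in others. On chromosome 16 Parp14, Dtx3l and Parp9 all fell, as did Gbp7, Gbp3 and Gbp2 on chromosome 3, and 4 of 5 genes of the Oas group on chromosome 5 (120730333 to 120907521) fell. The Ifit genes on chromosome 19, Mx1 and Mx2 on chromosome 16 and Rsad2 and Cmpk2 on chromosome 12 had no called member. Oasl2 and Igtp were called and their neighbours Oasl1 and Irgm2 were not; the difference between neighbours was not tested.

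The calls fell into a firm set and a less firm one. In all 12 fits that left out 1 library and in 7 other fits, 19 of the 30 genes were called lower: Ddx58, Dhx58, Irf7, Oas1a, Oas2, Gbp2, Gbp3, Irgm1, Bst2, Ifitm3, Rtp4, Isg15, Parp9, Dtx3l, Parp12, Parp14, Lgals3bp, Ifi27 and Ifi35. By edgeR's test with all libraries, these 19 had an adjusted p of 0.0116 (Parp14) or less. The other called genes had 0.0170 (Oasl2) or more, so the split restates that order. Of the 21 genes not called, 14 stayed uncalled in all 12 fits that left out 1 library. Against 40 °C, 17 of the 26 called genes kept their call in all 12 such fits, and 15 also in the 7 others. There Dhx58 was called in 3 of the 12 fits and Gbp2 in 8, and Oas1a and Parp14 lost their call with only the 2 groups in the fit. How many of all called genes keep their call in these fits was not computed.

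Other genes of the interferon pathway were taken from lists. None of the 21 interferon genes passed the filter, 16 were at 0 in all libraries, and Ifnb1 reached at most 5 reads. Of 10 receptor and JAK-STAT genes tested, 4 fell and 0 rose at 44 °C against 37 °C, beside 7.11% lower and 6.58% higher over all genes. Stat3 averaged 142 ± 4.37 CPM after 44 °C, against 169 ± 5.77 after 37 °C (log2FC −0.25, adjusted p = 0.00346) and Jak2 76.5 ± 13.3 CPM after 44 °C, against 103 ± 7.18 after 37 °C (log2FC −0.43, adjusted p = 0.0138). Il10rb (log2FC −0.40, adjusted p = 0.0219) lost its call without 37 °C replicates 3 or 4 or 44 °C replicate 2 (adjusted p between 0.0501 and 0.0685, 0.00467 to 0.0685 over all alternatives), and Ifnar2 (log2FC −0.22, adjusted p = 0.0236), a chain of the type I receptor chosen after its value was seen, lost it without 37 °C replicates 1, 3 or 4 or 44 °C replicate 4 (adjusted p between 0.0513 and 0.0661, 0.00465 to 0.0892 over all alternatives) and with no filter on low counts. The negative regulators had 2 of 14 lower and 0 higher, beside the same shares over all genes, namely Socs3, a feedback inhibitor of JAK signalling (117 ± 15.5 CPM after 44 °C, against 216 ± 11.5 after 37 °C, log2FC −0.89, adjusted p = 2.75e-05), and Socs1 (log2FC −0.48, adjusted p = 0.00134).

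Of 21 sensing and signalling genes tested, 2 fell and 2 rose, near the shares over all genes (7.11% lower and 6.58% higher). Mb21d1, which encodes the DNA sensor cGAS, averaged 24.0 ± 2.62 CPM after 44 °C, against 16.4 ± 2.16 after 37 °C (log2FC 0.55, adjusted p = 0.00419), and Irf8, chosen after its value was seen, rose as well (log2FC 0.35, adjusted p = 0.0202). Ikbke (log2FC −0.54, adjusted p = 0.0141) and Tlr4 (log2FC −0.43, adjusted p = 0.0153) were lower, and lost their calls without 37 °C replicate 1 (adjusted p = 0.0509, 0.000413 to 0.0509 over all alternatives) for Ikbke and without 37 °C replicate 2 (adjusted p = 0.0535, 0.00226 to 0.0535 over all alternatives) for Tlr4. Of 43 further interferon-induced genes tested, 12 fell and 1 rose, with a median log2 fold change of −0.39. The smallest p-values were those of Apol9b (61.7 ± 8.49 CPM after 44 °C, against 94.2 ± 7.20 after 37 °C, log2FC −0.61, adjusted p = 0.00235), Gbp9 (log2FC −0.67, adjusted p = 0.00280) and Gbp5 (log2FC −1.27, adjusted p = 0.00316). Slfn9 was the 1 gene that rose (log2FC 0.26, adjusted p = 0.0197), chosen after its value was seen, and lost its call without 37 °C replicate 1 or 44 °C replicate 4 (adjusted p between 0.0614 and 0.0728, 0.00210 to 0.0728 over all alternatives). Without 37 °C replicate 1, 9 of the 43 fell, and without 44 °C replicate 1, 28. Calls over all genes in either direction moved along, with 979 and 3322 in those fits, against 1975 with all libraries.

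Markers of other cells were read in the same libraries, since leukocytes can carry high levels of these genes. Of 13 leukocyte markers 5 were at 0 in all libraries (Adgre1, Laptm5, Tyrobp, Cd3e and Ncr1), and Ptprc, the defining leukocyte gene, had at most 1 read in a library. The summed level of the 13 lay between 41.8 and 58.3 CPM at 37 °C, 35.0 and 46.9 CPM at 40 °C and 30.02 and 42.2 CPM at 44 °C, and 1 of 3 tested markers, Mpeg1, was lower (log2FC −1.52, adjusted p = 0.00132). The other tested markers, Cd68 and Cd14, were read at higher levels than Mpeg1 and were not called. Cd68 averaged 23.9 ± 5.16 CPM after 44 °C, against 31.5 ± 5.76 after 37 °C (log2FC −0.40). Cd14 averaged 9.79 ± 0.397 CPM after 44 °C, against 11.2 ± 0.741 after 37 °C (log2FC −0.19). Of 4 mesenchymal markers tested 3 were lower at 44 °C (Vim, Prrx1 and Twist1), and their list summed to between 4449 and 4831 CPM at 37 °C, 4195 and 4912 CPM at 40 °C and 3511 and 3980.0 CPM at 44 °C. Of 7 chondrogenic markers tested 1 was lower and 0 higher, of 3 endothelial markers 2 were higher, with their 5-gene list at 5.83 CPM or less in every library, and of 3 epithelial markers 0 were called. The part of these shifts in the results above was not tested.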

How the data were processed

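The authors deposited raw counts per gene, not normalised, with 1 column for each of 12 libraries. The deposited gene length, another value of that table, was used for RPKM. The submitters' processing notes name fastp, the aligner HISAT2 (2.0.5), StringTie (1.3.3b), the counter featureCounts (1.5.0-p3) and the build mm10. Strand use in counting and the treatment of reads with several matches are not given in the sources used here, so values of near-identical or overlapping genes are uncertain. Libraries were made from mRNA purified with poly-T beads, per the labels' protocols.

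The analysis ran in R 4.3.3. Genes were filtered by edgeR 4.0.16 (filterByExpr, count minimum 10, total minimum 15) and libraries scaled by TMM. One quasi-likelihood fit took all 12 libraries and the 3 temperatures, with two-sided F-tests, Benjamini-Hochberg adjustment over all 14424 genes and calls at an adjusted p under 0.05. CPM values use TMM-scaled library sizes, SE is log2FC over the root of F, and SD is over the 4 libraries of a group. The fit was also run on simulated counts with known changes, and the outcome is not given here. Those counts had a common spread for all genes and no within-group axis, so they do not cover the spread seen here. Pairs of libraries within groups had a chi-square per gene of 2.88 to 21.4, so each library counted once.

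Alternatives were DESeq2 1.42.0 and its size factors, library totals, no filter, only the groups compared, a threshold of 0.01, the replicate block, the within-group axis as covariate, summed counts of near-identical genes, and leaving out each library. The genes and lists were chosen with earlier results of these data known, so no list was tested as a whole. Every gene of the list could be named, and of each other pathway list the 3 with the smallest p. Promoters came from RefSeq, without those on chromosome 18. One gene of the pathway lists is not reported here by name.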

Additional observations from a re-analysis of the deposited data

Results flagged for a closer look

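Single libraries stood apart from the other 3 of their temperature by Dixon's gap test in 13 of 156 gene and temperature groups (gap over range above its 95% critical value), where chance gives about 1 in 20. Oas1b had 2.09 CPM in 40 °C replicate 2, below the 4.16 to 4.58 CPM of the other 3 libraries at 40 °C. In 40 °C replicate 1, Ifit2 was at 19.5 CPM, below 21.0 to 21.3 CPM in the other 3. The value of Ifit3b in 40 °C replicate 2 was 3.04 CPM, below the 4.33 to 4.47 CPM of the others. Gbp3 had 55.5 CPM in 40 °C replicate 1, above the 52.3 to 52.8 CPM of the other 3 libraries at 40 °C. In 40 °C replicate 1, Igtp was at 16.7 CPM, below 19.4 to 19.9 CPM in the other 3. The value of Ifitm3 in 37 °C replicate 1 was 483 CPM, above the 443 to 449.7 CPM of the others. Cmpk2 had 6.40 CPM in 37 °C replicate 1, above the 3.70 to 3.77 CPM of the other 3 libraries at 37 °C. In 44 °C replicate 1, Isg15 was at 19.7 CPM, above 11.5 to 12.3 CPM in the other 3. The value of Usp18 in 40 °C replicate 4 was 24.1 CPM, above the 17.99 to 18.9 CPM of the others. Trim25 had 143 CPM in 40 °C replicate 1, below the 149 to 150.2 CPM of the other 3 libraries at 40 °C. In 37 °C replicate 1, Parp14 was at 43.8 CPM, above 40.2 to 40.6 CPM in the other 3. The value of Ifi35 in 44 °C replicate 3 was 15.8 CPM, below the 18.1 to 18.4 CPM of the others. Samd9l had 11.5 CPM in 37 °C replicate 4, above the 10.4 to 10.5 CPM of the other 3 libraries at 37 °C.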

How the results depend on the processing

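Of 2284 values of single genes under an alternative setting, 2054 kept their direction and their side of the threshold, 157 lost their call, 61 gained one and 12 changed sign. The changes of sign were in genes that were not called: with the within-group axis as covariate (44 °C over 37 °C), Mx2 had 0.12, Ifi47 0.038 and Cmpk2 0.19. On leaving out 1 library, Mx2 lay between −0.63 and 0.036 (without 44 °C replicate 2), Cmpk2 between −0.24 and 0.20 and Oasl1 between −0.064 (without 44 °C replicate 1) and 0.16 (44 °C over 37 °C), and Oasl1 between −0.12 and 0.10 (44 °C over 40 °C). The cause was not tested. At an adjusted p under 0.01, 18 genes were lower at 44 °C than at 37 °C and 15 than at 40 °C. All genes called in either direction at that threshold numbered 630 and 270. With the axis as covariate 35 were lower than at 40 °C, and 1 (Rsad2) was higher in each comparison. Against 40 °C, 2556 of all genes were called in either direction in that fit. With only the 2 groups in the fit, 16 of the 51 genes were lower than at 40 °C, and 334 of all genes were called in either direction. On leaving out 1 library, the genes of the list called lower numbered 19 to 36 against 37 °C and 17 to 33 against 40 °C. Over all genes, the fits at the ends of these ranges called 979 and 3322 against 37 °C, and 426 and 1261 against 40 °C. The counts of list genes called higher were 0 in every fit that left out 1 library. At 40 °C against 37 °C, the counts of list genes called were 0 in every setting. In the pathway lists, lower calls ran from 2 to 5 (receptors), 1 to 3 (sensing) and 9 to 28 (other interferon-induced), and higher calls from 0 to 1 (negative regulators and other interferon-induced). DESeq2 called 4 sensing and 19 other interferon-induced genes lower and 1 negative regulator higher, no filter gave 4 and 20 lower, and the replicate block 20 other interferon-induced genes lower.

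By their correlations, replicate numbers did not consistently pair the libraries. Correlations of the deviations of same-numbered libraries ran from −0.207 to 0.366, with 3 of 12 over 0.1, and 7 of 24 matchings were best with the own number. With the replicate block 32 genes were lower at 44 °C than at 37 °C and 30 than at 40 °C, and 0 were called at 40 °C. Calls over all genes also rose with the block, to 2557 from 1975 against 37 °C and to 901 from 725 against 40 °C. Eif2ak2 and Trim30a, not called at 44 °C against 37 °C, were called lower with the block. With 4 libraries per group that spread widely at 44 °C, genes under a few CPM were read with wide errors, and the interval between heating and extraction is unknown.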
